A study of Mus musculus with 59 samples.

Results

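A set of 45 genes for chromatin and transcription regulators was followed in the prefrontal cortex of young mice given lithium or fluoxetine. The genes were listed by name, with earlier results of these data known, and most of their human counterparts are linked to intellectual disability, autism or other neurodevelopmental disorders. All 45 were found by symbol among the 18088 genes of the deposited table, and all 45 were among the 16599 genes tested. They were sorted by role into 7 proteins of the histone H3 lysine 4 (H3K4) methyltransferase family, 5 other SET-domain proteins, 2 histone demethylases, 9 CHD remodellers, 6 subunits of the BAF and PBAF complexes, 2 histone acetyltransferases, 9 transcription factors and adaptors, 2 proteins of the Mediator kinase module and 3 TNRC6 scaffolds.

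The mice were C57BL/6J animals, wild type (WT) or carrying 1 copy of a Shank3 knock-in allele (heterozygous, HT) that the labels do not describe further. Shank3 encodes a scaffold protein of the postsynaptic density of excitatory synapses. Pups received vehicle, lithium (a mood stabilizer) or fluoxetine (a serotonin reuptake inhibitor) through the milk of their mothers from postnatal day 3 to day 24, for 3 weeks, and the prefrontal cortex was taken on day 25. The 6 arms of genotype and treatment held 10 mice each, 5 females and 5 males, except WT lithium, which held 9, with 4 females. Doses and litters are not given in the labels, so each pup was counted as independent and the p-values measure the spread between pups. Treatment came through the mothers, so pups nursed by the same mother shared it. Effects of drug and litter therefore cannot be told apart, and the p-values of the drug comparisons may be too small. Polyadenylated RNA was sequenced from each mouse with a stranded kit, and values are normalised read counts, that is, the reads of a gene divided by the size factor of its library.

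Chromatin regulators set how tightly DNA is packed and which genes can be read. Methyltransferases of the KMT2 and SETD1 group mark lysine 4 of histone H3 at promoters and enhancers, acetyltransferases such as Crebbp and Ep300 add acetyl groups at active enhancers, and CHD and BAF remodellers use ATP to move or eject nucleosomes. In developing cortex these proteins are known for their part in the change from progenitor to neuron and in the later maturation of neurons, and loss of a single copy of many of the human genes is enough to cause disease. The TNRC6 proteins act elsewhere, in the cytoplasm, where they join Argonaute proteins to the enzymes that shorten messenger RNA tails.

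The promoters of the genes were described by their letters, which the list did not use. RefSeq windows (GRCm38.p6) of 250 bases before an annotated start were found for 32 of the 45 genes. The first listed window of each held a median of 25 CpG dinucleotides, against 14 over the 15479 windows of tested genes and 6 over all 32851 windows. These background windows include every listed start of a gene and were not matched to the members for expression level. The GC box GGGCGG, read on both strands, stood in 27 of the 32 windows (84.4%), against 54.5% of the windows of tested genes and 32.7% of all windows. The motif TATAAA, also read on both strands, stood in 0 of 32, against 6.82% and 12.4%. The CCAAT motif stood in 6 of 32 windows (18.8%), against 34.8% of the windows of tested genes and 33.8% of all windows. Windows of the 21 genes called higher in 1 or more of the drug comparisons described below held a median of 25 CpG dinucleotides, with a GC box in 18, and those of the 11 genes called in none held a median of 16, with a GC box in 9. Some first listed windows lie inside the gene. Those of the uncalled Setd5 (0 CpG dinucleotides) and Tcf20 (6) are such windows. The Setd5 window starts at base 113104685, where the gene starts at 113077365. The Tcf20 window ends at 82912384, where the gene, on the minus strand, starts at 82987872. A match is a description of the letters and shows no binding. The upstream windows of Kmt2d, Smarca4 and Tnrc6b are shown because these genes rose under lithium, and that of Tnrc6a because it is the TNRC6 gene that was not called in any comparison. Their GC boxes do not stand for the set. Windows of the called genes Setd1a, Smarcc2 and Tnrc6c held 0 GC boxes, and those of the uncalled Setd2 and Med13 held 7 each. Letters run 5′ to 3′ on the strand of the gene, with GC boxes of either strand in capitals. The window of Kmt2d (chr15:98871206-98871455, minus strand) held 26 CpG dinucleotides and 4 GC boxes, that of Smarca4 (chr9:21615919-21616168, plus strand) 25 and 3, that of Tnrc6b (chr15:80711063-80711312, plus strand) 14 and 1, and that of Tnrc6a (chr7:123123635-123123884, plus strand) 9 and 0.
Kmt2d: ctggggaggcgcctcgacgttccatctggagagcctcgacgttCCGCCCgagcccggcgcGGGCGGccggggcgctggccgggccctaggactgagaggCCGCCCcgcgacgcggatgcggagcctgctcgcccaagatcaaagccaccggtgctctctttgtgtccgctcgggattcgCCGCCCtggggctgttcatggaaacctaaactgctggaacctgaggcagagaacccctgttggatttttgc
Smarca4: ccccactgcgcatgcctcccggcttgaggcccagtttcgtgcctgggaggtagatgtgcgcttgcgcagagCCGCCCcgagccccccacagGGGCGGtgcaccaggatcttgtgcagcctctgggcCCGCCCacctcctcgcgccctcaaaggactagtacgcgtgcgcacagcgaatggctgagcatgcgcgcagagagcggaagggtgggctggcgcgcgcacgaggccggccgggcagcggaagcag
Tnrc6b: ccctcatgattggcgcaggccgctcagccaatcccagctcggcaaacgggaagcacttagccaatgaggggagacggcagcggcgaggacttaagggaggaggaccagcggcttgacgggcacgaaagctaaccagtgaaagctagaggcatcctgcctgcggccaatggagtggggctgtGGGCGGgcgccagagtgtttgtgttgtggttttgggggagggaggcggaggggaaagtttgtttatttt
Tnrc6a: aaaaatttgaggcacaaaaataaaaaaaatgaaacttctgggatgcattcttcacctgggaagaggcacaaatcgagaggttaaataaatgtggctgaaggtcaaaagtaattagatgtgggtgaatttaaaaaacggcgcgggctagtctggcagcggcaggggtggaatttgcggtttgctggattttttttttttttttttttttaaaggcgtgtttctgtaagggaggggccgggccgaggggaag

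Libraries held 22984556 to 35969254 reads. Shank3, the targeted gene, ranged from 6022 to 8496 (median 7616) normalised counts in WT vehicle mice and from 5748 to 8248 (median 7756) in HT vehicle mice, which overlapped, so the gene count does not check the genotype of this allele. It ranged from 6565 to 8588 (median 7926) in WT lithium, from 7366 to 11196 (median 9993) in HT lithium, from 5170.1 to 9844 (median 7542) in WT fluoxetine and from 6531 to 8755 (median 8047) in HT fluoxetine mice. It rose with lithium in HT mice by 0.43 ± 0.086 (SE) on the log2 scale (limma adjusted p = 0.000272) and was at 0.056 ± 0.088 in WT mice (limma adjusted p = 0.751), and the genotype by lithium interaction of 0.37 ± 0.12 was not called (limma adjusted p = 0.24). All 7 pyramidal neuron markers were tested, with mean levels over all libraries from 789 to 92371 normalised counts. Markers of the olfactory bulb, a neighbouring tissue, varied between libraries: their summed counts ran from 720.5 to 12018 (median 6599) in WT vehicle, from 613 to 16751 (median 4024) in HT vehicle, from 981 to 13498 (median 4195) in WT lithium, from 582 to 15761 (median 1255) in HT lithium, from 544 to 22850.5 (median 2778) in WT fluoxetine and from 663 to 13671 (median 2409) in HT fluoxetine mice, and 0 of the 8 were called in any drug comparison. Of 59 libraries, 7 stood apart by these markers (a mean above 2.5 times their average) or by fewer than 5% mitochondrial reads: 2 HT lithium females, 2 HT vehicle males and 3 WT fluoxetine females. WT lithium female 1 and HT fluoxetine male 5, each at 2.497 times the average, and HT vehicle female 1, at 2.481, lay just under that limit and were not among these 7. Outside these 7, the library of 1 HT vehicle female held choroid plexus and ependyma markers at a sum of 52659, against medians of 162 to 228 in the 6 arms.

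With lithium in both genotypes and with fluoxetine in WT mice, a large share of the chromatin regulator genes rose by small amounts. Fewer rose once a trend on transcript length was removed, as described below. In the fit given first, without that removal, no member was called lower in any drug comparison. A gene was called where its Benjamini-Hochberg adjusted p from limma, taken over all 16599 genes, was under 0.05, and changes are differences of log2(normalised count + 1). With lithium, 20 of 45 members rose in HT mice, where 10.9% of all tested genes rose and 9.43% fell, and the member median was 0.12 with 37 above 0, against -0.0018 and 49.5% above 0 over all genes. In WT mice on lithium 20 of 45 rose, against 7.66% of all genes higher and 5.11% lower, with a member median of 0.13 and 41 above 0, where the median over all genes was -0.0036. In WT mice on fluoxetine 15 of 45 rose, against 3.54% higher and 2.11% lower, with a median of 0.13 and 42 above 0, where the median over all genes was -0.0073. With fluoxetine in HT mice only Setd1b and Ahdc1, 2 of 45, rose, against 0.205% higher and 0.0723% lower, yet 44 of the 45 changes were above 0, with a median of 0.080, where 49.6% of all genes were above 0. The members are longer and more abundant than most genes, which the background over all genes does not match. In bulk tissue, fewer cells of a type and less RNA per cell cannot be told apart. Counts of genes called in several comparisons are not independent, since lithium and fluoxetine share the vehicle mice of each genotype. With that limit, Setd1b and Ahdc1 were called higher in all 4 drug comparisons, 9 members (Kmt2a, Kmt2b, Kmt2d, Chd4, Chd9, Arid1a, Ep300, Crebbp and Tnrc6b) in 3, 6 in 2, 10 in 1 and 18 in 0.

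**Figure D1:**
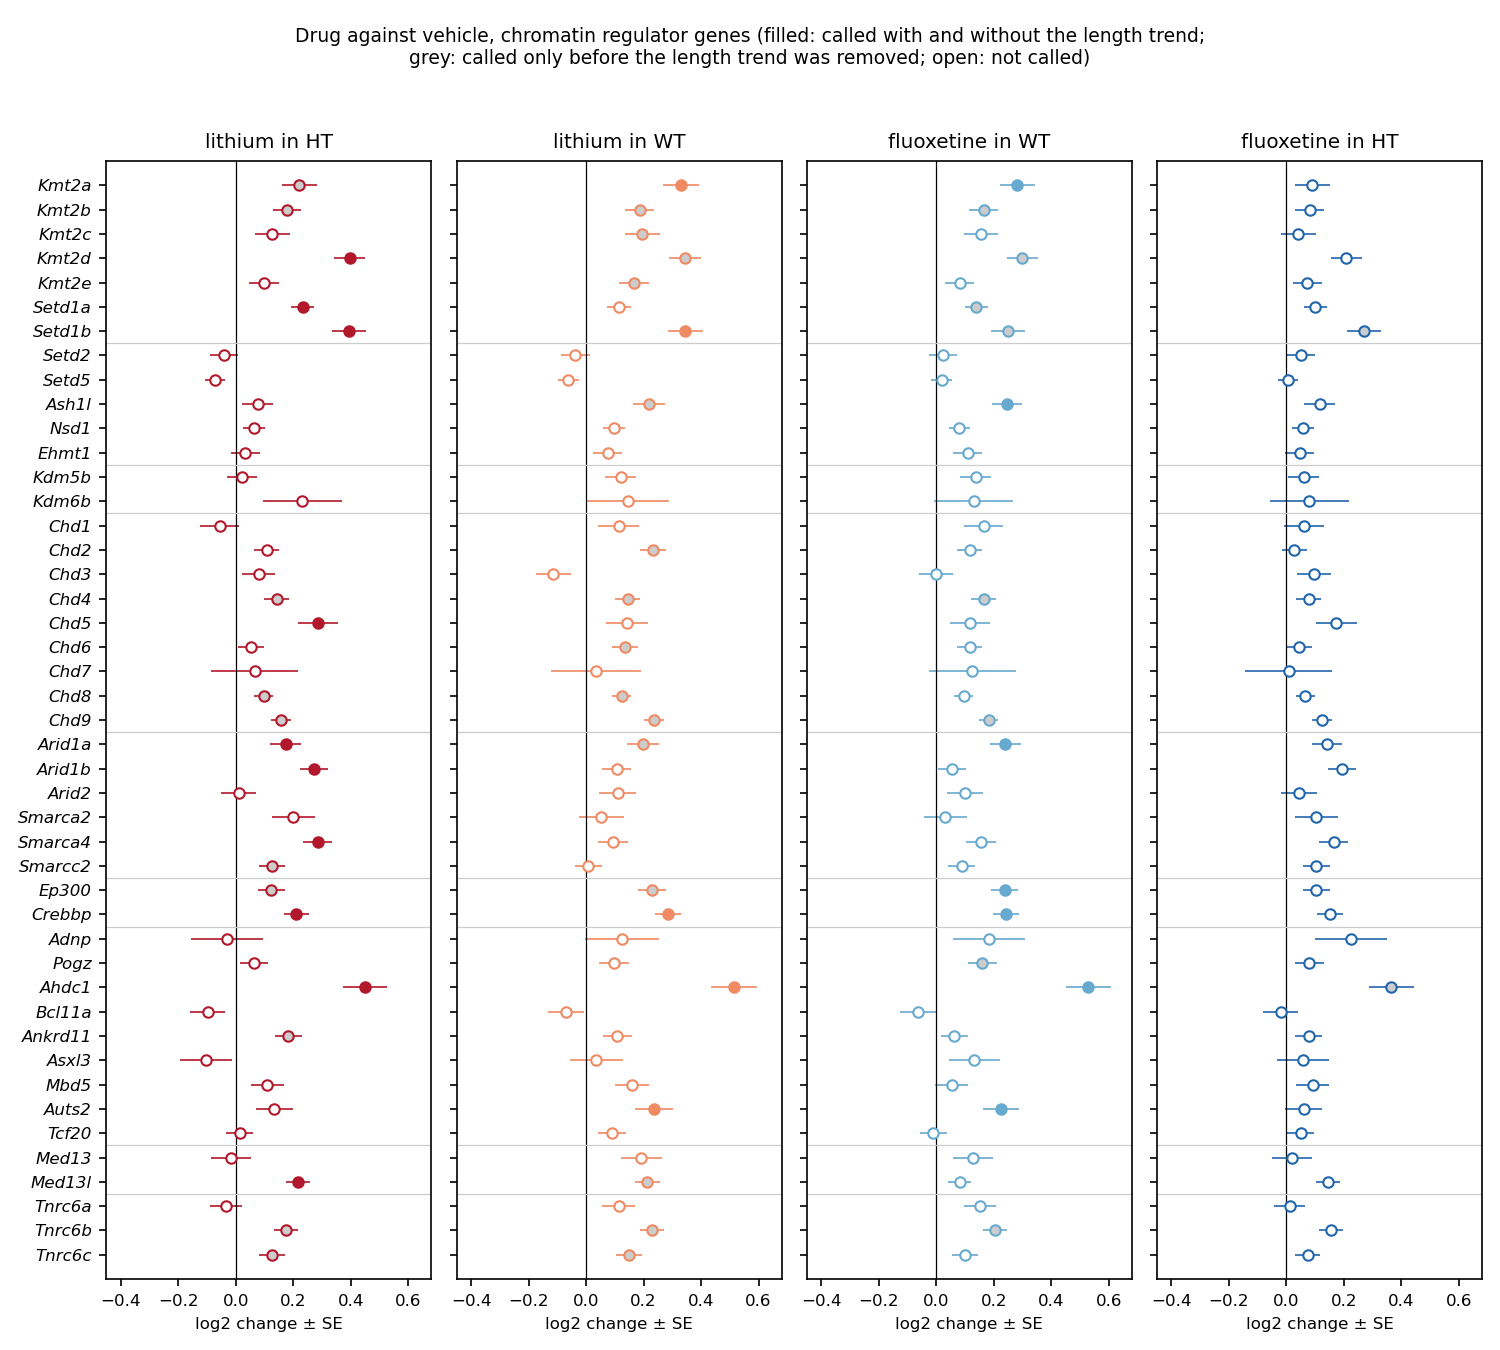
Change of each of the 45 genes (log2 units, drug against vehicle, with the SE of limma as bars) in the 4 drug comparisons, with genes in order of role and grey lines between roles. Filled points were called both before and after the transcript length trend was removed, grey points only before, and open points were not called before. Most points lie to the right of 0 in every panel, with Ahdc1 farthest at 0.36 to 0.53.

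The change was small beside the level. The median coefficient of variation of a member among WT vehicle mice was 7.99%, and the pooled SD, within the 12 groups of genotype, treatment and sex, of the mean log2 level of the 45 genes was 0.070. Relative to its mean over all libraries, that mean level ran from -0.24 to 0.0087 (median -0.049) in WT vehicle, from -0.034 to 0.16 (median 0.063) in WT lithium and from -0.054 to 0.24 (median 0.057) in WT fluoxetine mice. It ran from -0.26 to 0.079 (median -0.11) in HT vehicle, from -0.075 to 0.10 (median 0.031) in HT lithium and from -0.087 to 0.10 (median 0.0038) in HT fluoxetine mice. The 2 vehicle arms had the lowest medians, and every drug arm overlapped its vehicle arm.

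Measured per kilobase of transcript, the members spanned a wide range. Chd3 was the most abundant at 3318 normalised counts per kb (mean of 59 libraries), followed by Smarcc2 at 1725, Smarca2 at 1253, Chd5 at 1123 and Ankrd11 at 844. Chd7, mutated in CHARGE syndrome, was the least abundant at 45.2 per kb, below Asxl3 at 50.3 and Chd1 at 90.8. The member median of 284 per kb compared with 168 over the tested genes. The lowest value of any member in any library was 267 normalised counts.

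The H3K4 methyltransferase family held 7 members, the catalytic proteins Kmt2a, Kmt2b, Kmt2c, Kmt2d, Setd1a and Setd1b and the related Kmt2e. In HT mice on lithium 5 of 7 rose (median 0.22), in WT mice on lithium 6 of 7 (median 0.20), in WT mice on fluoxetine 5 of 7 (median 0.16) and in HT mice on fluoxetine 1 of 7 (median 0.090). Over all tested genes 10.9%, 7.66%, 3.54% and 0.205% were called higher in these comparisons, in the same order. Kmt2d (ENSMUSG00000048154, GRCm38 chromosome 15, 98831669 to 98871204, minus strand), an enhancer methyltransferase mutated in Kabuki syndrome, has the longest transcript of the set at 19823 bases. Kmt2d counts ran from 2962 to 3825 (median 3369) in the 10 HT vehicle mice and from 4096 to 4826 (median 4375) in the 10 HT lithium mice, and every lithium mouse lay above every vehicle mouse. Kmt2d rose by 0.40 ± 0.054 (limma adjusted p = 8.14e-07), a fold of 1.32, and by 0.34 ± 0.055 in WT mice on lithium (limma adjusted p = 2.93e-05) and 0.30 ± 0.054 in WT mice on fluoxetine (limma adjusted p = 0.000547). In HT mice on fluoxetine it stood at 0.21 ± 0.054 and was not called (limma adjusted p = 0.0621). Setd1b (ENSMUSG00000038384, GRCm38 chromosome 5, 123142193 to 123168629, plus strand) encodes the catalytic subunit of a SET1 complex, which adds trimethyl marks at promoters. Setd1b counts extended from 1065 to 1446 (median 1249) in the 10 HT vehicle mice and from 1440.3 to 1994 (median 1639.7) in the 10 HT lithium mice, where 9 of the 10 lithium mice lay above the highest vehicle mouse and the arms overlapped. It rose in all 4 comparisons, by 0.39 ± 0.060, 0.35 ± 0.062 and 0.25 ± 0.060 in the first 3 (limma adjusted p = 6.09e-06, 0.000103 and 0.0077) and by 0.27 ± 0.060 in HT mice on fluoxetine (limma adjusted p = 0.0277). Its paralog Setd1a is a gene linked to schizophrenia. Setd1a counts ran from 1541 to 1868 (median 1640.4) in the 10 HT vehicle mice and from 1790.0 to 2062 (median 1971) in the 10 HT lithium mice, and 8 of the 10 lithium mice lay above the highest vehicle mouse and the arms overlapped. The rise was 0.23 ± 0.040 in HT mice on lithium (limma adjusted p = 3.45e-05) and 0.14 ± 0.040 in WT mice on fluoxetine (limma adjusted p = 0.0282), while WT mice on lithium stood at 0.11 ± 0.041 (limma adjusted p = 0.0572). Kmt2a, the MLL protein mutated in Wiedemann-Steiner syndrome, rose by 0.22 ± 0.061, 0.33 ± 0.063 and 0.28 ± 0.061 in the same 3 comparisons. Kmt2b rose by 0.18 ± 0.050, 0.19 ± 0.051 and 0.16 ± 0.050, although its lithium change in HT mice was -0.0026 once both the length and the GC trend were removed. Kmt2c and Kmt2e rose with lithium in WT mice and were not called in the other 3, by 0.20 ± 0.062 and 0.17 ± 0.052; Kmt2e overlaps Srpk2 on the opposite strand, and whether counting used strand is not given in the sources used here.

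**Figure D2:**
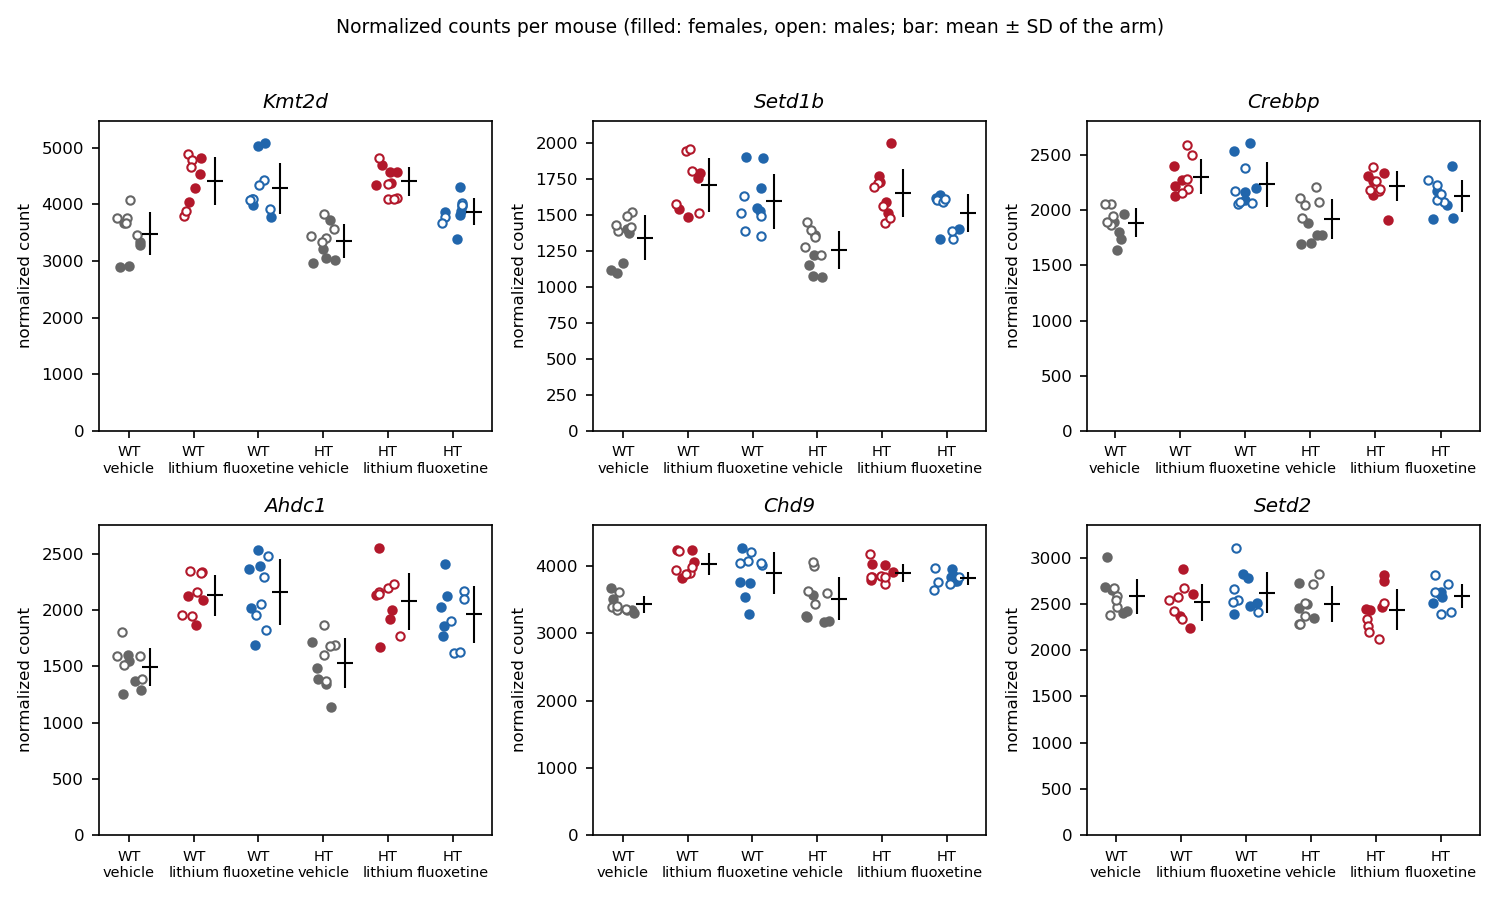
Normalised counts of Kmt2d, Setd1b, Crebbp, Ahdc1, Chd9 and Setd2 in every mouse, by arm (filled, females; open, males; bar, mean ± SD of the arm). The lithium arms of Kmt2d sit at medians of 4375 in HT and 4535 in WT mice against 3369 and 3569 under vehicle, while the 6 arms of Setd2 overlap.

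Of the 5 other SET-domain proteins, 0 rose in HT mice on lithium, 1 in WT mice on lithium, 1 in WT mice on fluoxetine and 0 in HT mice on fluoxetine. Their medians were 0.032, 0.075, 0.080 and 0.051. The shares of all genes called higher were 10.9%, 7.66%, 3.54% and 0.205% in that order, and counts out of 5 are too small to be set apart from these. The gene called was Ash1l, a methyltransferase of histone H3 lysine 36 and an autism gene. Ash1l counts ran from 3562 to 5044 (median 4112) in the 10 WT vehicle mice and from 4371 to 6003 (median 4919) in the 10 WT fluoxetine mice, and 4 of the 10 fluoxetine mice lay above the highest vehicle mouse and the arms overlapped. Ash1l rose by 0.25 ± 0.053 with fluoxetine (limma adjusted p = 0.00315) and by 0.22 ± 0.055 with lithium (limma adjusted p = 0.00459) in WT mice, against 0.076 ± 0.053 with lithium in HT mice (limma adjusted p = 0.333). Part of Ash1l overlaps Dap3 on the opposite strand. Nsd1, a lysine 36 methyltransferase mutated in Sotos syndrome, was not called. Nsd1 counts ran from 4283 to 5035 (median 4732) in the 10 WT vehicle mice and from 4645 to 5211 (median 5064) in the 9 WT lithium mice, with a difference of 0.10 ± 0.038 (limma adjusted p = 0.0883). Ehmt1 places methyl groups on lysine 9 and is mutated in Kleefstra syndrome. Ehmt1 counts ran from 878 to 1145 (median 1019) in the 10 WT vehicle mice and from 991 to 1407 (median 1048) in the 10 WT fluoxetine mice, a difference of 0.11 ± 0.050 (limma adjusted p = 0.196) that was -0.0046 without the libraries that stood apart. Setd2, which completes lysine 36 methylation, stood between -0.041 and 0.051 in the 4 comparisons, and Setd5 between -0.072 and 0.019, with neither called.

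Neither of the 2 histone demethylases was called in any of the 4 comparisons. As 10.9%, 7.66%, 3.54% and 0.205% of all genes were called higher, 0 of 2 does not set the pair apart. Kdm5b removes methyl groups from H3 lysine 4, opposite to the family above. Kdm5b counts ran from 1528 to 2024 (median 1762) in the 10 WT vehicle mice and from 1736 to 2413 (median 1917) in the 10 WT fluoxetine mice, a difference of 0.14 ± 0.054 (limma adjusted p = 0.116). Kdm6b, a lysine 27 demethylase that opens genes silenced by Polycomb, was the more variable of the pair. Kdm6b counts ran from 730.4 to 1284 (median 926) in the 10 HT vehicle mice and from 800.2 to 1517 (median 1075) in the 10 HT lithium mice, a difference of 0.23 ± 0.14 (limma adjusted p = 0.247), and 3 of the 10 lithium mice lay above the highest vehicle mouse and the arms overlapped.

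Of the 9 CHD remodellers, 4 rose in HT mice on lithium, 5 in WT mice on lithium, 2 in WT mice on fluoxetine and 0 in HT mice on fluoxetine (medians 0.10, 0.13, 0.12 and 0.065). Among all genes 10.9%, 7.66%, 3.54% and 0.205% rose in that order. Chd9 (ENSMUSG00000056608, GRCm38 chromosome 8, 90828352 to 91054516, plus strand) had the smallest p of the class. Chd9 counts ran from 3309 to 3667 (median 3370.3) in the 10 WT vehicle mice and from 3829 to 4244 (median 3992) in the 9 WT lithium mice, and every lithium mouse lay above every vehicle mouse. It rose by 0.24 ± 0.036 (limma adjusted p = 9.56e-06), and by 0.16 ± 0.035 and 0.18 ± 0.035 with lithium in HT and fluoxetine in WT mice (limma adjusted p = 0.000961 and 0.00111). Chd2, mutated in a childhood epileptic encephalopathy, likewise separated the WT lithium mice. Chd2 counts ran from 1563 to 1912 (median 1783) in the 10 WT vehicle mice and from 1931 to 2199 (median 2073) in the 9 WT lithium mice, and every lithium mouse lay above every vehicle mouse. Chd2 rose by 0.23 ± 0.045 (limma adjusted p = 0.000297) and was not called in the other 3 comparisons, at 0.11 ± 0.043 with lithium in HT mice (limma adjusted p = 0.0709). Chd4 and Chd5 are ATPases of the NuRD complex, which couples remodelling to histone deacetylation, and Chd5 is found mostly in neurons. Chd5 counts ran from 7613 to 11368 (median 10134) in the 10 HT vehicle mice and from 9524 to 14658 (median 12158) in the 10 HT lithium mice, where 7 of the 10 lithium mice lay above the highest vehicle mouse and the arms overlapped. Chd5 rose by 0.29 ± 0.071 in HT mice on lithium (limma adjusted p = 0.00257) and stood at 0.14 ± 0.073 in WT mice (limma adjusted p = 0.2). Chd4 counts ran from 4616 to 5873 (median 5148) in the 10 WT vehicle mice and from 5350.4 to 6309 (median 5653) in the 10 WT fluoxetine mice, where 4 of the 10 fluoxetine mice lay above the highest vehicle mouse and the arms overlapped. Chd4 rose by 0.16 ± 0.043 (limma adjusted p = 0.0141), and by 0.14 ± 0.043 and 0.15 ± 0.044 with lithium in HT and WT mice. Without the libraries that stood apart its fluoxetine change in WT mice was 0.10 and no longer called (limma adjusted p = 0.102). Chd8, among the genes most often mutated in autism, rose by 0.10 ± 0.033 and 0.12 ± 0.034 with lithium in HT and WT mice, though its HT change was -0.0064 in males alone. Chd6 rose by 0.13 ± 0.046 with lithium in WT mice. Chd1, Chd3 and Chd7 were not called in any comparison, and Chd3, the third NuRD ATPase, stood at -0.11 ± 0.060 with lithium in WT mice (limma adjusted p = 0.215).

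Of the 6 subunits of the BAF and PBAF complexes, the mammalian SWI/SNF remodellers, 4 rose in HT mice on lithium (median 0.19), where 10.9% of all genes rose. The count was 1 of 6 in WT mice on lithium (median 0.10), where 7.66% of all genes rose. It was 1 of 6 in WT mice on fluoxetine (median 0.095, against 3.54%) and 0 of 6 in HT mice on fluoxetine (median 0.12, against 0.205%). No genotype by lithium interaction was called for any of the 6. Smarca4 encodes BRG1, the ATPase of the complex. Smarca4 counts ran from 3617 to 4625 (median 4292) in the 10 HT vehicle mice and from 4561 to 6784 (median 5089) in the 10 HT lithium mice, and 9 of the 10 lithium mice lay above the highest vehicle mouse and the arms overlapped. The highest value was that of a single female, and the next was 5188. Smarca4 rose by 0.28 ± 0.051 (limma adjusted p = 6.09e-05), and by 0.22 without the libraries that stood apart. In WT mice on lithium it stood at 0.095 ± 0.052 (limma adjusted p = 0.242), and the interaction was 0.19 ± 0.073 (limma adjusted p = 0.295). Arid1b, the BAF gene of Coffin-Siris syndrome, followed the same order. Arid1b counts ran from 1969 to 2518 (median 2194) in the 10 HT vehicle mice and from 2336 to 2878 (median 2671) in the 10 HT lithium mice, and 9 of the 10 lithium mice lay above the highest vehicle mouse and the arms overlapped. Arid1b rose by 0.27 ± 0.048 (limma adjusted p = 5.27e-05), stood at 0.11 ± 0.050 in WT mice (limma adjusted p = 0.153), and the interaction of 0.17 ± 0.069 was not called (limma adjusted p = 0.317). Its paralog Arid1a rose in 3 comparisons. Arid1a counts ran from 3159.7 to 4168 (median 3717) in the 10 WT vehicle mice and from 3845 to 5425 (median 4202) in the 10 WT fluoxetine mice, and 6 of the 10 fluoxetine mice lay above the highest vehicle mouse and the arms overlapped. The rises of Arid1a were 0.24 ± 0.053 with fluoxetine in WT mice (limma adjusted p = 0.00391), 0.20 ± 0.055 with lithium in WT mice and 0.17 ± 0.053 with lithium in HT mice. Smarcc2, a core scaffold subunit, rose by 0.13 ± 0.046 in HT mice on lithium (limma adjusted p = 0.0424). Smarca2, the alternative ATPase, stood at 0.20 ± 0.075 in that comparison (limma adjusted p = 0.0502), and Arid2, of the PBAF complex, at 0.0093 ± 0.062.

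Both histone acetyltransferases, the paralogs Ep300 and Crebbp of Rubinstein-Taybi syndrome, rose in 3 of the 4 comparisons. In these 3, lithium in HT and WT mice and fluoxetine in WT mice, 10.9%, 7.66% and 3.54% of all genes rose. Crebbp counts ran from 1639.9 to 2060.3 (median 1896) in the 10 WT vehicle mice and from 2131 to 2591 (median 2271) in the 9 WT lithium mice, and every lithium mouse lay above every vehicle mouse. Crebbp (ENSMUSG00000022521, GRCm38 chromosome 16, 4081328 to 4213997, minus strand) rose by 0.29 ± 0.046 (limma adjusted p = 2.58e-05), a fold of 1.22, by 0.21 ± 0.044 with lithium in HT mice (limma adjusted p = 0.000523) and by 0.24 ± 0.044 with fluoxetine in WT mice (limma adjusted p = 0.00067). Under fluoxetine in HT mice it stood at 0.15 ± 0.044 (limma adjusted p = 0.114). Ep300 counts ran from 1824 to 2212 (median 2055) in the 10 WT vehicle mice and from 2113 to 2764 (median 2396) in the 10 WT fluoxetine mice, and 7 of the 10 fluoxetine mice lay above the highest vehicle mouse and the arms overlapped. Ep300 rose by 0.24 ± 0.046 (limma adjusted p = 0.00131), by 0.23 ± 0.048 with lithium in WT mice (limma adjusted p = 0.000757) and by 0.12 ± 0.046 with lithium in HT mice (limma adjusted p = 0.0486). The last of these lost its call in 37 of 59 fits that each left out a library (limma adjusted p up to 0.117).

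The 9 transcription factors and adaptors held the largest change of the set and also 5 members called in no drug comparison. In HT mice on lithium 2 of 9 rose, in WT mice on lithium 2, in WT mice on fluoxetine 3 and in HT mice on fluoxetine 1 (medians 0.064, 0.11, 0.13 and 0.077). The shares over all genes were 10.9%, 7.66%, 3.54% and 0.205% in that order. Ahdc1 (ENSMUSG00000037692, GRCm38 chromosome 4, 133011260 to 133078110, plus strand) encodes an AT-hook DNA-binding protein, mutated in Xia-Gibbs syndrome. Ahdc1 counts ran from 1255 to 1805 (median 1527) in the 10 WT vehicle mice and from 1691 to 2537 (median 2176) in the 10 WT fluoxetine mice, and 9 of the 10 fluoxetine mice lay above the highest vehicle mouse and the arms overlapped. Ahdc1 rose by 0.53 ± 0.077 (limma adjusted p = 6.4e-05), a fold of 1.44, and by 0.51 ± 0.080 and 0.45 ± 0.077 with lithium in WT and HT mice (limma adjusted p = 1.55e-05 and 3.76e-05). Fluoxetine in HT mice raised it by 0.36 ± 0.077 (limma adjusted p = 0.0245), and without the libraries that stood apart that change was 0.32 and not called (limma adjusted p = 0.0969). Auts2, a partner of Polycomb complexes named after its link to autism, has the longest gene span of the set at 1106 kb. Auts2 counts ran from 1516 to 2318 (median 1813) in the 10 WT vehicle mice and from 1948 to 2427 (median 2092) in the 9 WT lithium mice, and 2 of the 9 lithium mice lay above the highest vehicle mouse and the arms overlapped. Auts2 rose by 0.24 ± 0.066 with lithium (limma adjusted p = 0.0116) and by 0.23 ± 0.064 with fluoxetine (limma adjusted p = 0.0255) in WT mice, and stood at 0.13 ± 0.064 with lithium in HT mice (limma adjusted p = 0.131). Ankrd11, the KBG syndrome gene, is a regulator that recruits histone deacetylases. Ankrd11 counts ran from 5951 to 7534 (median 6738) in the 10 HT vehicle mice and from 6824 to 10325 (median 7476) in the 10 HT lithium mice, and 4 of the 10 lithium mice lay above the highest vehicle mouse and the arms overlapped. Its highest value came from the same female as that of Smarca4, with the next at 7810.0. Ankrd11 rose by 0.18 ± 0.048 (limma adjusted p = 0.00449), and without the libraries that stood apart stood at 0.11, not called (limma adjusted p = 0.0676). Pogz, a zinc-finger protein that binds heterochromatin protein, was called with fluoxetine in WT mice. Pogz counts ran from 1477 to 1830.3 (median 1681) in the 10 WT vehicle mice and from 1693 to 2519 (median 1798) in the 10 WT fluoxetine mice, and 4 of the 10 fluoxetine mice lay above the highest vehicle mouse and the arms overlapped. The rise was 0.16 ± 0.050 (limma adjusted p = 0.0424), against 0.043 without the libraries that stood apart (limma adjusted p = 0.547). Adnp, Bcl11a, Asxl3, Mbd5 and Tcf20 were not called in any drug comparison. Adnp is uncertain, because Gm20716, with a mean of 2621 normalised counts, overlaps it on the same strand and reads could be split between them. Bcl11a, a zinc-finger factor of deep-layer and interneuron development, stood below 0 in each of the 4 comparisons, from -0.10 to -0.020.

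Med13 and Med13l are alternative linkers of the Mediator kinase module to the core complex that bridges enhancer factors and RNA polymerase. Med13l counts ran from 2519.9 to 3536 (median 2881) in the 10 HT vehicle mice and from 3105 to 3696 (median 3402) in the 10 HT lithium mice, and 2 of the 10 lithium mice lay above the highest vehicle mouse and the arms overlapped. Med13l rose by 0.22 ± 0.041 in HT mice (limma adjusted p = 0.000141) and by 0.21 ± 0.043 in WT mice on lithium (limma adjusted p = 0.000483), and stood at 0.081 ± 0.041 with fluoxetine in WT mice (limma adjusted p = 0.257). Med13 counts ran from 2231 to 2879 (median 2469) in the 10 WT vehicle mice and from 2523 to 3186 (median 2866) in the 9 WT lithium mice, a difference of 0.19 ± 0.071 that was not called (limma adjusted p = 0.0661), and with lithium in HT mice Med13 stood at -0.018 ± 0.069 (limma adjusted p = 0.887). Among the 3 TNRC6 scaffolds of microRNA silencing, Tnrc6b and Tnrc6c rose with lithium in both genotypes, as did 10.9% of all genes in HT and 7.66% in WT mice. Tnrc6b counts ran from 2995 to 3829 (median 3541) in the 10 WT vehicle mice and from 3707 to 4516 (median 3979) in the 9 WT lithium mice, and 8 of the 9 lithium mice lay above the highest vehicle mouse and the arms overlapped. Tnrc6b rose by 0.23 ± 0.043 (limma adjusted p = 0.000211), by 0.17 ± 0.042 in HT mice on lithium and by 0.20 ± 0.042 in WT mice on fluoxetine. Tnrc6c counts ran from 2689.8 to 3504 (median 3006) in the 10 WT vehicle mice and from 3041 to 3848 (median 3339.7) in the 9 WT lithium mice, and 2 of the 9 lithium mice lay above the highest vehicle mouse and the arms overlapped. Tnrc6c rose by 0.15 ± 0.046 (limma adjusted p = 0.0213) and by 0.13 ± 0.044 in HT mice (limma adjusted p = 0.0371). Tnrc6a counts ran from 2047 to 2348 (median 2226) in the 10 WT vehicle mice and from 2149.6 to 3308 (median 2451) in the 10 WT fluoxetine mice, a difference of 0.15 ± 0.055 that was not called (limma adjusted p = 0.0869). A single WT fluoxetine female set the top of that range, and the next value was 2604.

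Transcript length runs through these values. The longest coding transcript of a member (GENCODE M21) measured 4562 to 19823 bases with a median of 8507, against 3064.5 over the tested genes, and 36 of the 45 lay in the top length decile, which starts at 6590 bases. Members also held a median of 27 exons against 8. Over 16588 tested genes with a known length, the change rose with length in each drug comparison. From the shortest to the longest decile the median change went from -0.029 to 0.054 with lithium in HT mice, from -0.097 to 0.12 with lithium in WT mice, from -0.070 to 0.073 with fluoxetine in WT mice and from -0.052 to 0.045 with fluoxetine in HT mice. The Spearman correlations across these genes, all read from the same libraries and not independent of each other, were 0.12, 0.34, 0.26 and 0.21 in that order. Among genes of the top decile 23.7% were called higher with lithium in HT mice, 26.0% with lithium in WT mice, 12.8% with fluoxetine in WT mice and 0.784% with fluoxetine in HT mice. Of the 36 members in that decile, 17, 19, 12 and 2 were called, and their medians were 0.12, 0.15, 0.13 and 0.077 against decile medians of 0.054, 0.12, 0.073 and 0.045.

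**Figure D3:**
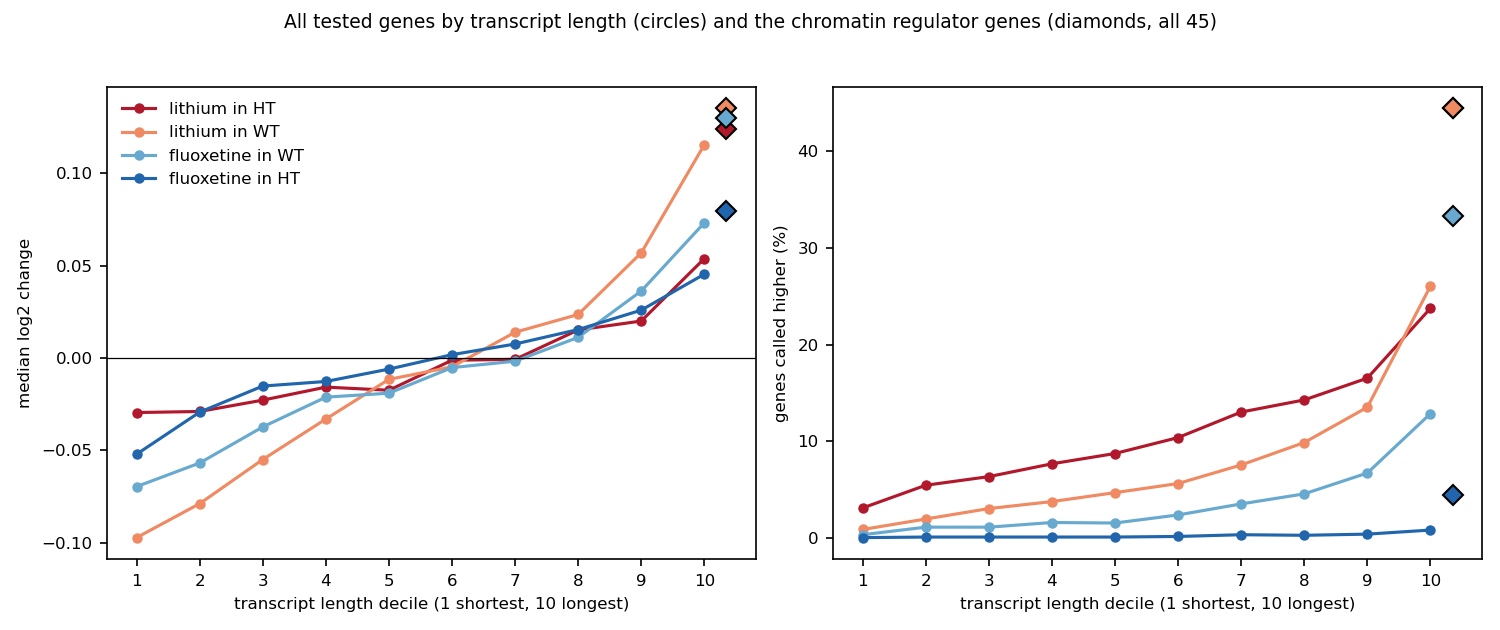
Median log2 change (left) and percent of genes called higher (right) by decile of transcript length in the 4 drug comparisons (circles, 1659 genes each in the shortest and longest decile), with all 45 chromatin regulator genes as diamonds at the right edge. The lines climb from left to right, and the diamonds sit above the longest decile of the same colour in both panels.

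When a smooth trend on transcript length was removed within each library, fewer members were called in each comparison. With lithium in HT mice 10 of 45 were still higher, where 9.96% of all genes were higher and 9.36% lower: Kmt2d, Setd1a, Setd1b, Chd5, Arid1a, Arid1b, Smarca4, Crebbp, Ahdc1 and Med13l. With lithium in WT mice 5 were higher, against 3.98% higher and 2.87% lower over all genes: Kmt2a, Setd1b, Crebbp, Ahdc1 and Auts2. With fluoxetine in WT mice 7 were higher, against 2.24% of all genes higher: Kmt2a, Ash1l, Arid1a, Ep300, Crebbp, Ahdc1 and Auts2. With fluoxetine in HT mice 0 members were called, as were 0% of all genes (0 of 16599). Each of these genes had also been called before the trend was removed. Crebbp and Ahdc1 were the 2 members called in all 3 of the first comparisons. Crebbp was then at 0.15, 0.15 and 0.16, and Ahdc1 at 0.42, 0.44 and 0.49. Kmt2a was close to the threshold in WT mice on lithium (limma adjusted p = 0.0489). Tnrc6b, with a transcript of 17332 bases, went from 0.23 to 0.041 in WT mice on lithium (limma adjusted p = 0.488), and Chd9, at 12008 bases, from 0.24 to 0.092 (limma adjusted p = 0.149). Relative to the trend, Setd5 fell with lithium in both genotypes, by 0.11 in HT and 0.14 in WT mice, and Setd2 fell by 0.14 in WT mice (limma adjusted p = 0.0326). The member medians after removal were 0.062, 0.026, 0.072 and 0.042, where those over all genes were 0.0015, -0.010, 0.0012 and 0.0031. The slope of log2 level on transcript length, a property of each whole library, ran from -0.074 to 0.015 (median -0.029) log2 units per doubling of length in WT vehicle and from -0.064 to 0.057 (median -0.032) in HT vehicle mice. It ran from -0.0061 to 0.068 (median 0.036) in WT lithium, from -0.025 to 0.072 (median -0.00053) in HT lithium, from -0.027 to 0.066 (median -0.0012) in WT fluoxetine and from -0.023 to 0.049 (median 0.00034) in HT fluoxetine mice. The vehicle arms had the lowest medians in both genotypes. The part of RNA quality in this slope was not tested.

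**Figure D4:**
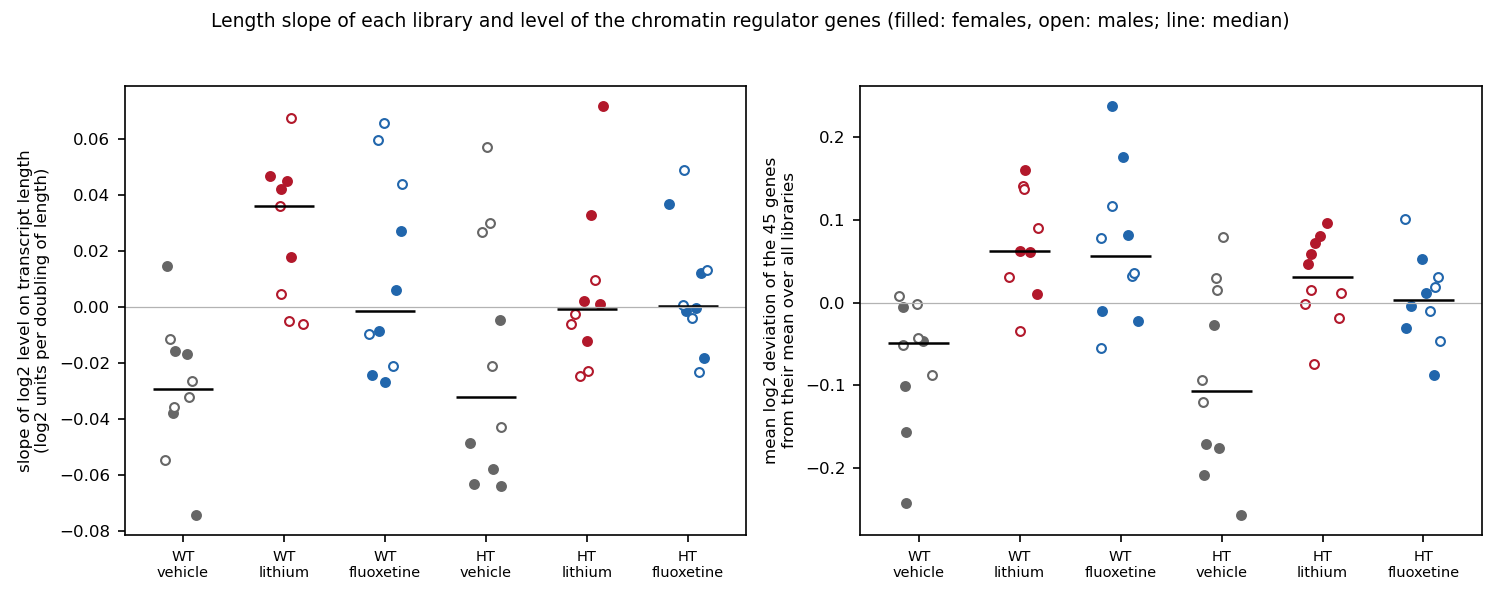
Slope of log2 level on transcript length over all genes (left, log2 units per doubling) and mean log2 deviation of the 45 genes from their mean over all libraries (right), 1 point per mouse (filled, females; open, males), with the median of each arm as a line. The vehicle arms have the lowest medians in both panels, at -0.029 and -0.032 for the slope and -0.049 and -0.11 for the 45 genes in WT and HT mice.

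GC content of the transcript ordered the members most in HT mice. Member transcripts held 40.5% to 59.9% G and C, with a median of 50.6% against 49.8% over the tested genes. Across the 45 members the Spearman correlation of the change with GC content was 0.75 with lithium in HT mice, 0.52 with fluoxetine in HT mice, 0.22 with fluoxetine in WT mice and 0.18 with lithium in WT mice, while over the 16588 genes it was 0.47, 0.30, 0.15 and 0.00062. These values describe genes that share libraries and carry no p. With lithium in HT mice, 8 of the 10 members with at least 55% GC rose (median change 0.26), 11 of the 25 between 46% and 55% (median 0.12), and 1 of the 10 under 46% (median -0.0044), with limits chosen after the values were seen. In WT mice on lithium the counts were 5 of 10, 12 of 25 and 3 of 10 (medians 0.17, 0.12 and 0.14). With the GC trend removed within each library 16 members rose with lithium in HT mice (6.79% of all genes), 23 with lithium in WT mice (8.65%), 25 with fluoxetine in WT mice (5.19%) and 3 with fluoxetine in HT mice (0.133%). The 3 GC classes in HT mice on lithium then had medians of 0.16, 0.10 and 0.092. The slope of log2 level on GC content ran from -0.16 to -0.00011 (median -0.061) per 10 percentage points in HT vehicle and from -0.11 to 0.26 (median 0.083) in HT lithium mice, against -0.16 to 0.14 (median 0.018) in WT vehicle and -0.10 to 0.070 (median 0.0072) in WT lithium mice, and its part in the member changes was not tested beyond this removal.

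**Figure D5:**
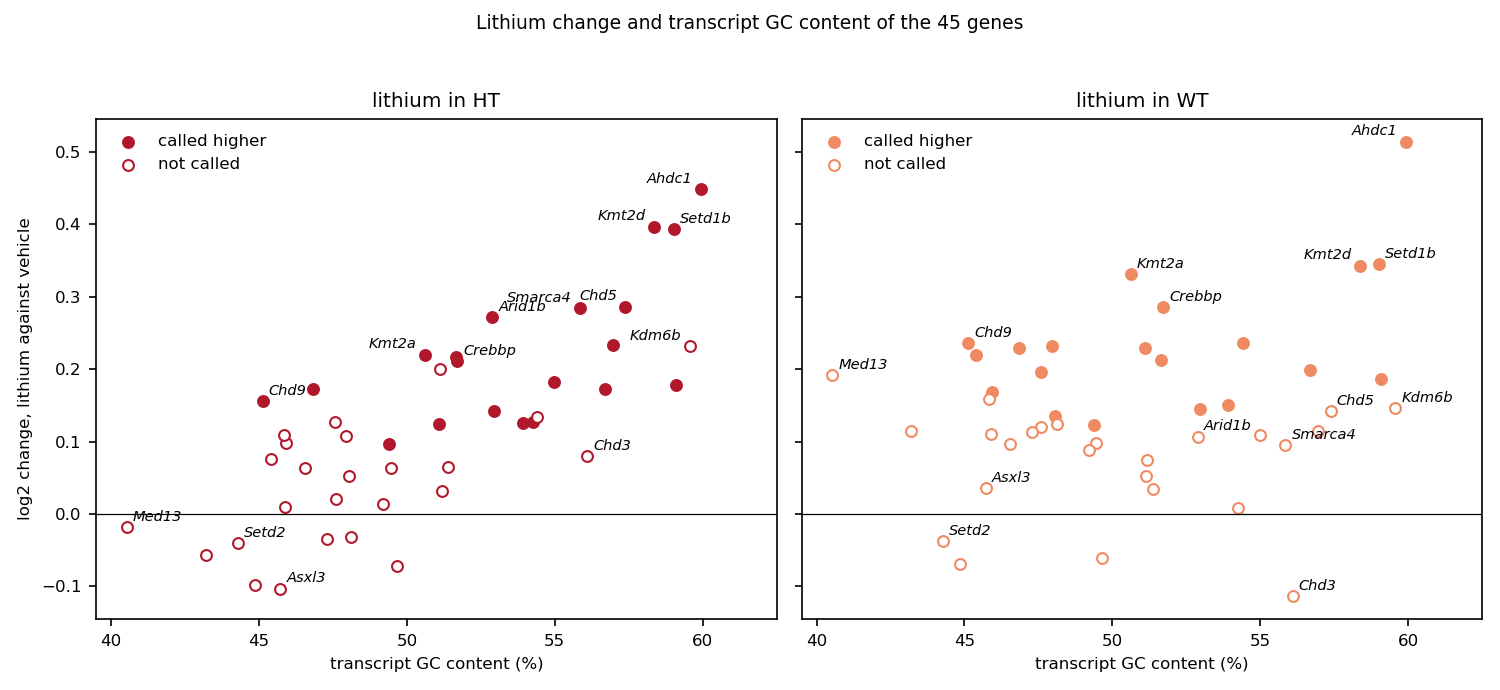
Change with lithium (log2 units) of the 45 genes against the GC content of their transcripts (percent) in HT mice (left) and WT mice (right), with called genes filled. In HT mice the points climb from Med13 at 40.5% GC and -0.018 to Ahdc1 at 59.9% GC and 0.45, while in WT mice Med13 stands at 0.19.

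Under lithium in HT mice the median member change was higher in females than in males, and no single member passed the test of that difference. Levels of females and males under vehicle were not tested against each other, and in HT mice their ranges overlapped. The mean log2 level of the 45 genes, relative to all libraries, ran from -0.26 to -0.027 in HT vehicle females and from -0.12 to 0.079 in HT vehicle males. It ran from 0.047 to 0.096 in HT lithium females and from -0.075 to 0.015 in HT lithium males. HT lithium females 4 and 5 and HT vehicle males 4 and 5 stood apart. Fitted within females, lithium raised 21 of 45 members in HT mice (3.72% of all genes higher) with a median of 0.23, and within males 8 of 45 (8.81%), with 1 lower, Bcl11a (7.39% of all genes lower), and a median of 0.011. The interaction of sex and lithium in HT mice was above 0 for 42 of 45 members, with a median of 0.21 against -0.0014 over all genes, and 26 had an unadjusted limma p under 0.05 (17.1% of all genes), but 0 were called, where 0.0120% of all genes were. Ash1l, Nsd1 and Chd2 had the smallest p, with interactions of 0.41 ± 0.11, 0.28 ± 0.074 and 0.32 ± 0.087 (limma adjusted p = 0.109 for each). With the length trend removed the median interaction of the members was 0.069, against -0.036 over all genes. In WT mice lithium raised 10 members in females (2.09%) and 6 in males (1.98%), and 0 interactions were called (0% of all genes), with 5 members and 8.84% of all genes at an unadjusted p under 0.05. Fluoxetine in WT mice raised 13 members in females (3.75%) and 3, Ash1l, Chd9 and Ahdc1, in males (1.60%). The interaction of sex and fluoxetine in WT mice was called above 0 for 5 of 45 members, where 3.58% of all genes were above and 5.08% below: Kmt2b at 0.33 ± 0.10, Setd1a at 0.25 ± 0.080, Setd1b at 0.46 ± 0.12, Kdm6b at 0.84 ± 0.28 and Arid1a at 0.36 ± 0.11. Without the libraries that stood apart, 3 of which are WT fluoxetine females, 0 of these were called. For fluoxetine in HT mice 0 interactions with sex were called (0% of all genes; 7 members and 5.31% of all genes had an unadjusted p under 0.05), and for HT against WT under vehicle 0 interactions with sex (0.00602% of all genes; 6 members and 1660 of 16599 genes had an unadjusted p under 0.05).

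Genotype by itself gave no call in the set. Under vehicle 0 of 45 members differed between HT and WT mice by limma, where 0% of all genes did (0 of 16599). Without adjustment, 3 of 45 members had a limma p under 0.05, a share near the 6.47% of all genes that did (1074 genes). The 3 were Arid1b at -0.14 ± 0.048, Smarca4 at -0.12 ± 0.051 and Smarcc2 at -0.10 ± 0.046, with limma adjusted p from 0.640 to 0.736. Another BAF subunit, Arid2, stood at 0.022 ± 0.062. On the recovered reads edgeR called 0 genes and DESeq2 called 6 in all, 0 of them members. Fitted in males alone, 0 members were called, where 0.819% of all genes (136) were, and 11 members had an unadjusted limma p under 0.05, where 17.8% of all genes did. Under fluoxetine 0 members were called (0% of all genes), where 8 had an unadjusted limma p under 0.05 (11.3% of all genes) and the member median was -0.058, and under lithium 0 (0% of all genes), where 3 had such a p (11.1% of all genes) and the member median was -0.055. The interactions of genotype with lithium (0 members and 0.00602% of all genes called, 5 members and 12.2% of all genes at an unadjusted p under 0.05) and with fluoxetine (0 members and 0% of all genes called, 3 members and 5.08% of all genes at an unadjusted p under 0.05) were called for no member in the fit that averaged the sexes. Fitted in males alone, the lithium interaction was called for 2 of 45 members, Ash1l at -0.34 (limma adjusted p = 0.0444) and Med13 at -0.40 (limma adjusted p = 0.0493), a share near the 3.79% of all genes called (629). A p that misses the threshold does not show that the genotypes responded alike.

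Several calls were lost without the libraries that stood apart. Without them 15 members rose with lithium in HT mice (6.59% of all genes), 24 with lithium in WT mice (9.96%), 11 with fluoxetine in WT mice (6.77%) and 0 with fluoxetine in HT mice (0%). None of the 7 is a WT vehicle or WT lithium library. The WT lithium calls could therefore move only through the estimate of spread shared by all groups, and this removal does not check them. Lithium in HT mice then lost Chd8, Smarcc2, Ep300, Ankrd11 and Tnrc6c. Fluoxetine in WT mice lost Kmt2a, Kmt2b, Setd1b, Chd4, Pogz and Auts2, and its calls gained Chd5, at 0.23, Smarca2, at 0.21, and Bcl11a, which fell by 0.20 (4.23% of all genes lower). Markers of other cells moved in some arms. Of 8 markers of myelinating oligodendrocytes, 0 were called with lithium in HT or WT mice (medians -0.23 and -0.22) and 4 fell with fluoxetine in WT mice (median -0.63), and their summed counts ran from 85964 to 253165 (median 157860.0) in WT vehicle, from 53754 to 172699 (median 103486) in WT fluoxetine, from 70483 to 165961 (median 141314) in HT vehicle and from 48200.1 to 159183 (median 98581) in HT lithium mice. With lithium in HT mice 3 of 8 astrocyte, 3 of 8 microglial, 1 of 7 pyramidal, 1 of 6 interneuron, 1 of 6 endothelial and 1 of 5 precursor markers rose. With lithium in WT mice 2 of 8 microglial and 3 of 6 endothelial markers fell, and 2 of 7 nuclear-retained noncoding RNAs rose. The part of cell composition in the member changes was not tested.

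Related chromatin and RNA-silencing genes, 176 genes in 10 lists, were called in both directions. Of the lists, 5 hold partners of the members' own complexes and 5 other enzyme groups. With lithium in HT mice 30 rose and 23 fell (median 0.017), against 10.9% and 9.43% of all genes. With lithium in WT mice 35 rose and 9 fell (median 0.042), against 7.66% and 5.11%. Under fluoxetine 31 rose and 1 fell in WT mice (median 0.043), against 3.54% and 2.11%. In HT mice 1 rose and 0 fell with fluoxetine (median 0.029), against 0.205% and 0.0723%. Counts of single lists stand beside the same shares and rest on few genes each. With the length trend removed the counts were 23 and 23, 18 and 6, 19 and 1, and 0 and 0. The shares of all genes higher were then 9.96%, 3.98%, 2.24% and 0%. Those lower under lithium were 9.36% in HT and 2.87% in WT mice. Of 15 COMPASS partners of the H3K4 methyltransferases, 6 rose and 3 fell with lithium in HT mice and 4 rose in WT mice. Cxxc1, a CpG-binding subunit of the SET1 complexes, rose by 0.20 ± 0.046, Men1, the menin partner of Kmt2a and Kmt2b, by 0.20 ± 0.049, and Bod1l by 0.20 ± 0.048 in HT mice. Only Bod1l of these 3, with a transcript of 10540 bases, also rose in WT mice on lithium, by 0.22 ± 0.050. That change was 0.090 and not called with the length trend removed (limma adjusted p = 0.278). Of 23 other BAF and PBAF subunits, 2 rose and 1 fell with lithium in each genotype, counts near the shares over all genes. Bicra, of the noncanonical BAF complex, rose in all 4 drug comparisons, from 0.26 ± 0.064 to 0.33 ± 0.062, while Phf10 fell by 0.19 with lithium in HT mice and Smarcd3 by 0.25 in WT mice. The fluoxetine change of Bicra in HT mice was 0.25 and not called with the length trend removed (limma adjusted p = 0.0910). Of 12 other NuRD subunits, 2 rose and 3 fell in HT and 1 rose and 3 fell in WT mice on lithium, and Hdac2, a deacetylase of the complex, fell by 0.20 and 0.15. In the Mediator list 3 of 31 other subunits rose and 10 fell with lithium in HT mice, and 3 and 3 in WT mice. Med25 rose by 0.26 ± 0.048 in HT mice, while Cdk19, a kinase of the same module as Med13l, fell by 0.22 and Med19 by 0.20. Of 17 Argonaute and deadenylase partners of TNRC6, 4 rose with lithium in WT mice, among them Ago3 by 0.36 ± 0.063 and Ago2 by 0.30 ± 0.048, whose transcripts span 15595 and 13800 bases, and 2 rose and 2 fell in HT mice. With the length trend removed Ago3 was at 0.19 and Ago2 at 0.14 in WT mice on lithium, both still called (limma adjusted p = 0.0140 and 0.0153). Cnot1, another of the 4, went from 0.16 to 0.059 and lost its call (limma adjusted p = 0.254).

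Among the enzymes outside these complexes, 7 of 15 other histone demethylases rose with lithium in WT mice, 7 with fluoxetine in WT mice and 4 with lithium in HT mice, with 0 lower. Of all genes 7.66%, 3.54% and 10.9% rose in that order, and 5.11% fell with lithium in WT and 9.43% in HT mice. The lists that follow stand beside the same shares. Kdm7a rose by 0.41 ± 0.069 with lithium in WT mice, Kdm3a by 0.26 ± 0.043, and Kdm5c, an X-linked intellectual disability gene, by 0.21 ± 0.039 with lithium in HT mice. Of 15 histone deacetylases and corepressors 5 rose and 1 fell in HT mice, and 4 rose in WT mice on lithium. Of 11 DNA methylation genes 1 rose with lithium in HT mice and 2 rose and 1 fell in WT mice. Tet3, which oxidises methylcytosine, rose by 0.35 ± 0.058 in HT and 0.37 ± 0.060 in WT mice on lithium and by 0.33 ± 0.058 with fluoxetine in WT mice. Of 14 ISWI, INO80 and SRCAP remodellers, whose median transcript of 8169 bases is near that of the 45 genes, 4 rose and 1 fell in HT mice and 5 rose in WT mice on lithium, with Baz2a at 0.22 ± 0.043 and Bptf at 0.22 ± 0.046 in WT mice. With the length trend removed Baz2a was at 0.12 (limma adjusted p = 0.0497) and Bptf at 0.071, not called (limma adjusted p = 0.305). Of 23 Polycomb genes 1 rose and 2 fell in HT and 3 rose and 1 fell in WT mice on lithium, with Asxl1 at 0.19 ± 0.035 in WT mice. So few calls among 23 genes are not set apart from the shares over all genes.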

How the data were processed

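RNA of the prefrontal cortex of 59 mice was sequenced. The deposited table holds 1 signal value per gene and library, gene counts that the authors divided by a size factor per library. Salmon 0.11.2, R 3.6.0, DESeq2 1.19.11 and the genome build GRCm38 are named, per the submitters' processing notes, with no role or order, and strand use in counting and filters are not given in the sources used here. Columns carry another prefix than the library names in the labels and were matched on the rest of the name. Whole reads were recovered in 100% of values (within 0.001), which gave 22984556 to 35969254 reads per library and size factors of 0.783 to 1.245. No 2 libraries were duplicates.

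Testing covered the 16599 genes whose mean reached 10 and used limma 3.58.1 (trend and robust, R 4.3.3) on log2(value + 1), a scale that understates changes of low genes, with 12 groups (genotype, treatment, sex), 47 residual degrees of freedom and Benjamini-Hochberg adjustment within each comparison. Drug and genotype comparisons averaged the sexes. edgeR 4.0.16 and DESeq2 1.42.0 on the recovered reads, other pseudocounts, quantile normalization, single sexes, a replicate block, each library left out, removal of 7 libraries that stood apart, and removal of transcript length and GC trends (loess, span 0.5, degree 1, per library; GENCODE M21 lengths) were alternatives. The script was tested on simulated data.

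The members and lists were chosen with earlier results of these data known. In each role class the 3 members with the smallest p over the drug comparisons (4 in classes of 9) were given with sample values. Up to 3 genes per partner list were named by the smallest p over the lithium comparisons alone, so their lithium values were also used to pick them. Replicate numbers did not pair libraries: the deviations of 319 same-number pairs had a median correlation of -0.0086, and 89 exceeded 0.1.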

Additional observations from a re-analysis of the deposited data

Results flagged for a closer look

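Of 58 arm values checked for single genes, 3 had a highest or lowest library far from the others by Dixon's criterion, and chance flags about 1 in 20. Smarca4 reached 6784 normalised counts in HT lithium female 5, where the next mouse had 5188. Ankrd11 reached 10325 in the same mouse, where the next had 7810.0. Tnrc6a reached 3308 in WT fluoxetine female 4, where the next had 2604. Both mice are among the 7 whose libraries stood apart by olfactory bulb markers or mitochondrial reads, whose part in these values was not tested.

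The fluoxetine change of WT mice differed between the sexes for 5 members, by limma's interaction term (adjusted p under 0.05). The female minus male difference was 0.33 for Kmt2b, 0.25 for Setd1a, 0.46 for Setd1b, 0.84 for Kdm6b and 0.36 for Arid1a on the log2 scale. The female changes were 0.33, 0.27, 0.48, 0.55 and 0.42 in that order, and the male changes 0.00070, 0.013, 0.022, -0.29 and 0.062. This count rests on single libraries: it was 3, 1, 9, 1 and 10 without WT fluoxetine females 1, 2, 3, 4 and 5, 1 without WT fluoxetine male 1, 2, 3, 1 and 8 without WT vehicle females 1, 2, 3 and 5, and 3, 2 and 1 without WT vehicle males 1, 3 and 4. It was 0 without the 7 libraries that stood apart, which include WT fluoxetine females 1, 2 and 4.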

How the results depend on the processing

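Pseudocounts of 0.5 and 5 and the absence of a filter on low values moved no count of members by over 1.5 times. Members called higher with lithium in HT mice numbered 13 under quantile normalization (with 1 lower; 10.3% of all genes higher, 10.6% lower), 8 in males (with 1 lower, median change 0.011; 8.81% higher, 7.39% lower) and 10 with the length trend (9.96% higher, 9.36% lower) or the length and GC trends removed (4.74% higher, 3.55% lower; 1 member lower in each), and the female median was 0.23. With lithium in WT mice they numbered 13 under quantile normalization (7.33% of all genes higher), 10 in females (2.09%), 6 in males (1.98%), 5 with the length trend removed (3.98%; 2 lower, median 0.026) and 6 with both trends removed (5.01%; 2 lower, median 0.028). With fluoxetine in WT mice they numbered 3 in males (1.60%), 7 with the length trend (2.24%), 25 with the GC trend (5.19%) and 6 with both removed (2.32%), and 1 member was lower without the libraries that stood apart. With fluoxetine in HT mice, where 2 were called, they numbered 0 when only the groups compared were fitted, in females, in males, with the length trend removed and without the libraries that stood apart, 1 with both trends removed (0.0422%) and 8 by DESeq2 (0.894%). Genotype by lithium gave 2 calls in males (Ash1l and Med13; 3.79% of all genes called), and sex by lithium in HT mice 4 by DESeq2 (138 of 10162 genes, 1.36%). Sex by fluoxetine in WT mice gave 8 under quantile normalization (10.2% called), 1 when only the groups compared were fitted (2.62%), 10 with the length trend removed (8.80%), 8 by DESeq2 (14.1%), and 0 with the GC trend or both trends removed and without the libraries that stood apart. Single genes reversed in 2 cases with lithium in HT mice, Kmt2b at -0.0026 with both trends removed and Chd8 at -0.0064 in males. Apart from the removals, whose construction takes out the trend, the cause was not tested.

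Leaving out 1 library at a time gave 16 to 21 members higher with lithium in HT mice, 16 to 23 with lithium in WT mice, 11 to 19 with fluoxetine in WT mice and 0 to 6 with fluoxetine in HT mice. The last count was 1 and 0 without HT fluoxetine females 4 and 5, 0 without HT fluoxetine male 3 or 4, 1, 0 and 6 without HT vehicle females 2, 3 and 5, 6 and 0 without HT vehicle males 2 and 5, and 4 without WT fluoxetine female 4. Sex by lithium in HT mice gave 0 to 1, with 1 without HT vehicle male 5, and sex by fluoxetine in WT mice 1 to 10. The replicate numbers do not pair the mice; with the number as a block, 22, 21, 15 and 2 members were called higher in the 4 drug comparisons. On the recovered reads edgeR called 21, 20, 15 and 3, and DESeq2 21, 21, 18 and 8. In all 15 calls were lost in at least 1 of these 59 fits: for lithium in HT mice Ep300 in 37, Smarcc2 in 14, Tnrc6c in 9 and Chd8 in 6, for lithium in WT mice Chd6 in 10, Kmt2c in 6, Kmt2e in 3, Chd4 and Tnrc6c in 2 each, for fluoxetine in WT mice Pogz in 11, Kmt2b in 10, Auts2 and Setd1a in 6 each, and for fluoxetine in HT mice Setd1b in 7 and Ahdc1 in 5.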
